A study of Mus musculus with 4 samples.

Results

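Arterial endothelial cells were the endothelial cells of the mouse striatal sections that carried transcripts of arterial genes, and 340 of 281824 kept cells were assigned to them. They were 340 of the 8755 cells called endothelial, and the other 8415 endothelial cells served as the comparison. A segmented cell was kept with at least 10 genes detected and a volume of at least 50 cubic micrometres. Cells were taken from the whole coronal section, with no cut to the striatum, whereas the paper analysed cells located within the striatum. The counts, shares and densities below therefore include other regions of the sections. It was called endothelial when at least 4 of the 6 genes Cldn5, Itm2a, Esam, Adgrl4, Abcb1a and Sox18 were detected and together made up at least 6% of its transcripts. It was called arterial when, in addition, at least 2 of the 4 genes Gkn3, Bmx, Sema3g and Vegfc were detected with at least 3 transcripts in all. The members were thus chosen by the measured counts of these 10 genes, whose levels are given as a description with no test.

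Multiplexed error-robust fluorescence in situ hybridisation (MERFISH), which counts single transcripts of a chosen panel inside segmented cells of a tissue section, was done on 4 coronal striatal sections. Of these, 2 were from young mice of 2 months and 2 from aged mice of 18 months, all wild-type C57BL/6NTac animals by the study's methods, and the 383 genes read here were the same in every section, and the sex of each mouse is not given in the sources used here. The purpose of the series was to compare striatal cells between these ages. Each section held 68011 to 74624 kept cells, with a median of 400, 325, 215 and 293 transcripts per kept cell in young section 1, young section 2, aged section 1 and aged section 2. No cell identifier was shared between sections. The sections are taken as separate animals, which the labels do not state outright, and with 2 per age every p-value measures the spread between these 4 sections only.

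Arterial endothelial cells line the vessels that bring blood into the brain, upstream of the capillaries, and are wrapped by contractile smooth muscle cells. Brain endothelium changes gradually along this path. Arterial cells are known for signals that shape and constrict the vessel wall, such as endothelin, and capillary cells for the transporters of the blood-brain barrier. Of the genes that chose the cells, Gkn3 encodes a secreted gastrokine long used as a marker of brain arteries, Bmx a cytoplasmic tyrosine kinase of arterial endothelium, Sema3g a secreted semaphorin, and Vegfc a growth factor that acts on lymphatic and vascular endothelium.

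The sequences just upstream of genes at either end of this range are shown to give each transcript its place in the genome. Gkn3 and Bmx helped choose the cells, Edn1 was among the arterial genes tested, and Car4 was the capillary gene with the largest fall. Each line gives the 250 bases before the RefSeq start site on GRCm38.p6, 5′ to 3′ in the direction of the gene, at chr6:87388936-87389185, minus strand for Gkn3, chrX:164258194-164258443, minus strand for Bmx, chr13:42301226-42301475, plus strand for Edn1 and chr11:84957504-84957753, plus strand for Car4. Capitals mark matches on either strand to 6 short motifs. Those searched were AACAAT, the core bound by SOX factors, and TGGGAA, the core bound by the Notch effector RBPJ. For ETS factors, a large family in endothelium, CCGGAA was used, and for GATA factors the letters AGATAA. The AP-1 element was searched as TGACTCA, and the element of flow-responsive KLF factors as CCACACCC.
Gkn3: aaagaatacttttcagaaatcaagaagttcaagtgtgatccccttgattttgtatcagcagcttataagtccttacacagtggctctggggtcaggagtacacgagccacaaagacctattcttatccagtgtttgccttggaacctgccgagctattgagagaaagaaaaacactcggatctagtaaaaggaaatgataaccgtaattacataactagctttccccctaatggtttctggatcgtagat
Bmx: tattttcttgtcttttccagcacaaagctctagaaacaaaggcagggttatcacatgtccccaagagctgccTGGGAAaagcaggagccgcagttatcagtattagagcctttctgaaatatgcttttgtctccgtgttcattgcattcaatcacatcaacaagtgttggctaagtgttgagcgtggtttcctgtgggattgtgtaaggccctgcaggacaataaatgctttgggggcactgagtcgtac
Edn1: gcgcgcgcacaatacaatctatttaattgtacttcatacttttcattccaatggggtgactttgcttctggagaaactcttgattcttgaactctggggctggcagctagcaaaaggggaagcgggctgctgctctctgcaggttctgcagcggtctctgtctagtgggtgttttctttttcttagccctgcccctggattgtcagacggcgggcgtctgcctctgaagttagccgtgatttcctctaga
Car4: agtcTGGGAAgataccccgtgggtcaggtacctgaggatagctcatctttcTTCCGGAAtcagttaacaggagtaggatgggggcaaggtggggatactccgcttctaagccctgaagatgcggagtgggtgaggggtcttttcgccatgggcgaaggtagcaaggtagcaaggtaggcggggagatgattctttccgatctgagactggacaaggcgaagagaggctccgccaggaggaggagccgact
The Bmx window held 1 RBPJ match, and the Car4 window held 1 RBPJ match and 2 overlapping ETS matches on opposite strands. The Gkn3 and Edn1 windows held no match to these letters. Of 32851 such windows in the RefSeq table, 21.6% held the RBPJ letters, 12.03% the ETS letters, 9.42% the SOX letters, 9.99% the GATA letters, 4.46% the AP-1 letters and 3.196% the KLF letters. A match describes the sequence and is not evidence of binding.

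Arterial cells were 120 of 2660 endothelial cells in young section 1, 94 of 2626 in young section 2, 31 of 1455 in aged section 1 and 95 of 2014 in aged section 2. The cells were distributed through all 4 sections, as the map of their positions shows.

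**Figure D1:**
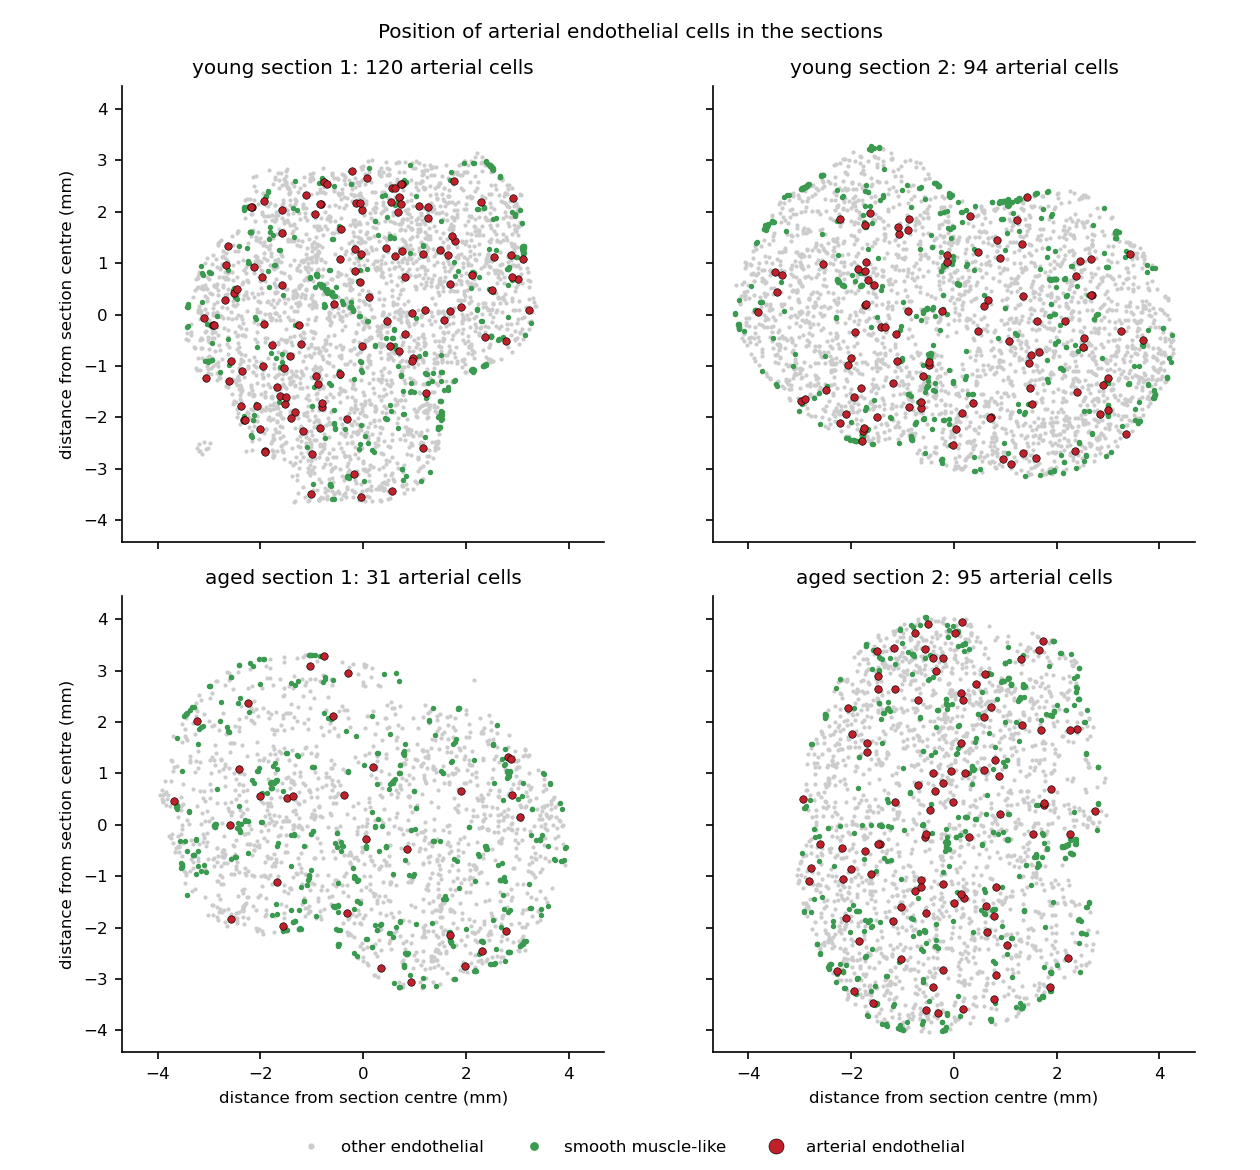
Position of each arterial endothelial cell (red), other endothelial cell (grey) and smooth muscle-like cell (green) in the 4 sections, in millimetres from the section's median cell position on both axes. The 120, 94, 31 and 95 arterial cells are scattered through the tissue, and aged section 1 has the fewest.

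Most members carried transcripts of only some of the markers. Bmx was detected in 304 of the 340 cells, Gkn3 in 253, Sema3g in 170 and Vegfc in 159. Exactly 2 markers were detected in 168 cells, 3 in 138 and all 4 in 34, and Gkn3 and Bmx were detected together in 223. Cells lay on both sides of each threshold. At the lowest marker sum of 3 transcripts there were 102 members, and just outside stood 135 endothelial cells with 2 markers and 2 transcripts and 64 with 1 marker and 3 or more transcripts. Likewise 138 members had an endothelial share between 6% and 7% of their transcripts, and 187 cells between 5% and 6% met every other condition. No marker of the set was detected in 7058 endothelial cells, and 3929 cells outside the endothelial class met the arterial condition on its own.

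The levels of the marker genes are given as transcripts per 10000 transcripts of the class, summed over its cells in a section. Gkn3 stood at 56.3 (young section 1), 51.5 (young section 2), 63.4 (aged section 1) and 66.4 (aged section 2) in arterial cells, against 2.31, 1.63, 2.65 and 2.54 in other endothelial cells in the same order of sections. Bmx stood at 65.4, 71.7, 89.3 and 76.9 in arterial cells and at 3.10, 2.80, 6.98 and 5.64 in other endothelial cells. All arterial values lay far above all others for both genes, as the rule requires. Sema3g lay between 18.3 and 28.5 and Vegfc between 15.5 and 25.2 in arterial cells, while neither passed 2.18 in other endothelial cells.

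The 6 endothelial genes were also part of the choice, but not of the choice between arterial and other endothelial cells. Cldn5, a tight junction claudin, averaged 62.8 ± 6.72 (SD, n = 4 sections) per 10000 in arterial cells and 55.5 ± 8.43 in other endothelial cells. Sox18, a transcription factor of vascular development, averaged 69.7 ± 8.77 and 43.9 ± 8.90. Itm2a, a membrane protein, went the other way at 113 ± 28.4 and 190.0 ± 42.6. Esam, Adgrl4 and Abcb1a had a ratio of arterial to other endothelial means of 0.912, 0.883 and 0.899.

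Genes outside the rule were then compared between arterial and other endothelial cells of the same sections. Mgp, Tm4sf1, Edn1 and Cdkn1c were higher in arterial cells, and Car4, Slc16a1 and Gatm were lower. Of 342 genes tested, 89 (26%) passed an adjusted p of 0.05 in edgeR's quasi-likelihood test with the section as a block, 47 of them (13.7%) higher and 42 (12.3%) lower. The median log2 fold change over all 342 genes was -0.07. When libraries were scaled by total count alone, the median moved to -0.18 and the split to 38 higher and 65 lower. Arterial cells held more transcripts than other endothelial cells, with medians of 348.5, 310.5, 239 and 253 against 240.5, 217, 173 and 192 per cell in the order of sections, and the rule itself favours deep cells. Among cells of 100 to 400 transcripts, 96 genes passed, and 78 of them were among the 89.

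All 6 further arterial genes listed were higher in arterial cells, where 13.7% of all genes tested were, and their median log2 fold change was 1.47. This list and those below were chosen with earlier results of these data known, so their tallies are a description only. Mgp, matrix Gla protein, which inhibits calcification of the vessel wall, stood at 51.0, 49.0, 110.0 and 27.6 per 10000 in arterial cells, against 4.07, 3.09, 3.12 and 3.27 in other endothelial cells. The groups did not overlap, and the spread among arterial cells was widest between the 2 aged sections. The log2 fold change was 4.04 ± 0.26 (SE, edgeR adjusted p = 9.9e-07). Tm4sf1, a tetraspanin-like membrane protein of endothelium, stood at 51.5, 44.6, 75.1 and 42.3 against 15.4, 14.3, 18.4 and 15.3, a log2 fold change of 1.81 ± 0.12 (SE, edgeR adjusted p = 9.9e-07). Edn1, which encodes the precursor of the vasoconstrictor endothelin, stood at 49.4, 43.3, 33.7 and 58.3 against 18.4, 16.4, 16.6 and 24.5. Its log2 fold change was 1.42 ± 0.12 (SE, edgeR adjusted p = 4.2e-06).

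Of the other 3, Cdkn1c, a cyclin-dependent kinase inhibitor, rose by 1.52 ± 0.20 on the log2 scale (SE, edgeR adjusted p = 0.00018). Crip1, a small LIM domain protein, rose by 1.35 ± 0.29 on 43 transcripts in arterial cells. Clu, which encodes the chaperone clusterin, rose by 0.29 ± 0.10 (edgeR adjusted p = 0.045). The call of Crip1 was lost without young section 1 and without cells that held Acta2, and that of Clu was lost in 9 of 14 alternative settings. Mgp, Tm4sf1, Edn1 and Cdkn1c passed in all 14.

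**Figure D2:**
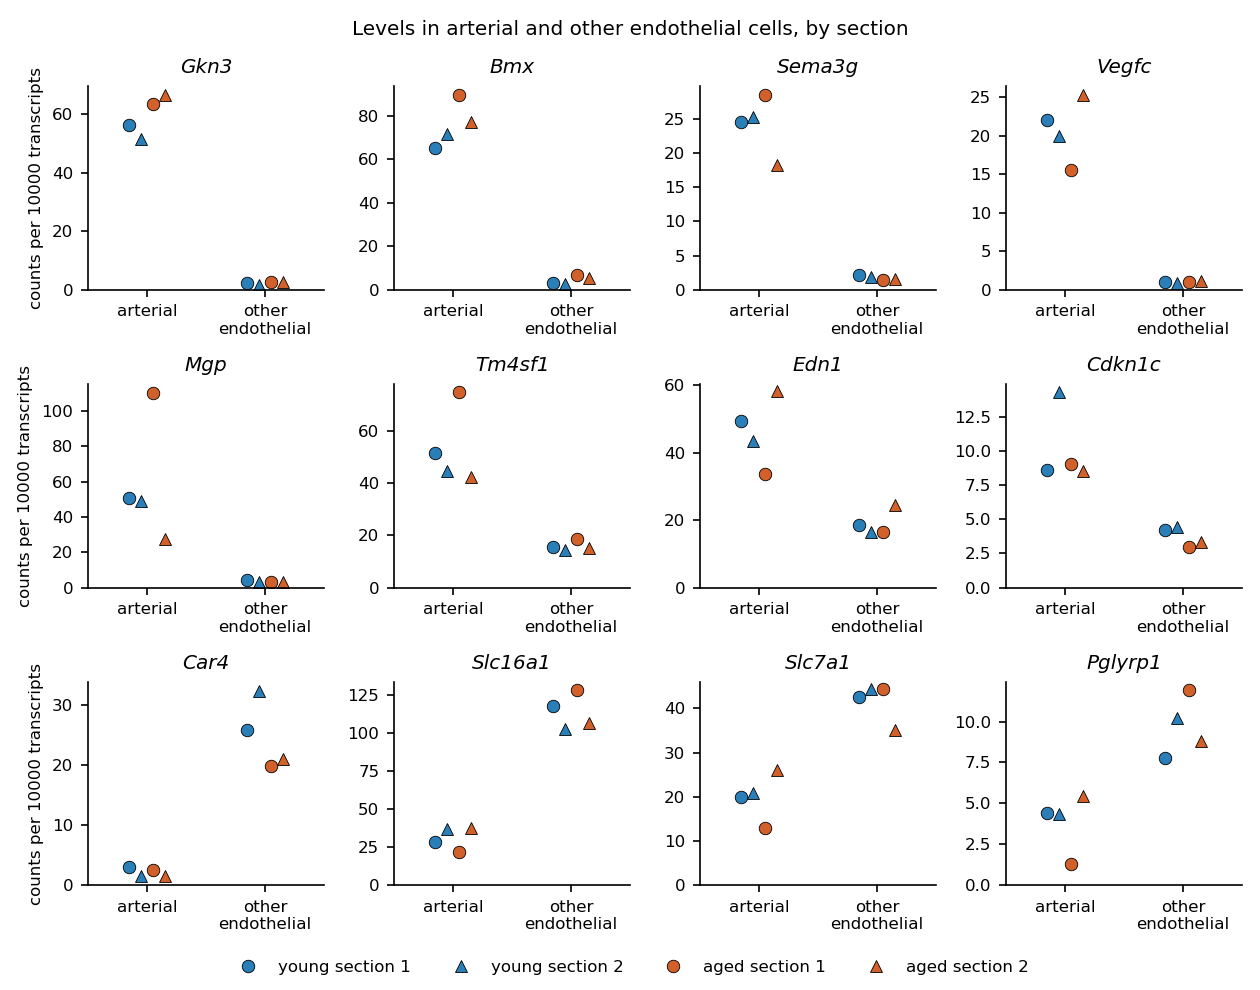
Transcripts per 10000 (vertical axes, each starting at 0) of 12 genes in arterial and other endothelial cells, with 1 point per section. The top row holds the 4 genes that chose the cells. In the other rows Mgp, Tm4sf1, Edn1 and Cdkn1c lie higher in arterial cells and Car4, Slc16a1, Slc7a1 and Pglyrp1 lower, with no overlap of the groups.

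Capillary genes went mostly the other way. Of 7 listed, 4 were lower, 1 was higher and 2 did not pass the test, with a median log2 fold change of -0.87 (12.3% of all genes tested were lower). Car4, a membrane-bound carbonic anhydrase of capillary endothelium, stood at 3.01, 1.56, 2.59 and 1.55 per 10000 in arterial cells and at 25.8, 32.4, 19.9 and 21.0 in other endothelial cells. Its log2 fold change was -3.44 ± 0.24 (SE, edgeR adjusted p = 1.2e-06), the largest fall among the genes tested, on 24 transcripts in arterial cells. Slc16a1, a monocarboxylate transporter that carries lactate and ketone bodies, stood at 28.5, 36.8, 22.0 and 37.3 against 117, 103, 128 and 106. It fell by 1.67 ± 0.15 on the log2 scale (SE, edgeR adjusted p = 6.1e-06).

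Slc7a1, a transporter of cationic amino acids, fell by 0.87 ± 0.16 and Pglyrp1, a peptidoglycan recognition protein, by 0.95 ± 0.25. Car4, Slc16a1 and Slc7a1 passed in all 14 alternative settings, and Pglyrp1 lost its call without either young section and with mixed cells left out. Leaving out mixed cells, those with 3 or more markers of another cell type, kept only 36, 23, 7 and 26 arterial cells in the order of sections. Slc16a4 and Spock2 had log2 fold changes of -0.27 ± 0.12 and -0.18 ± 0.10 (SE) and did not pass. Slco1c1, which carries thyroid hormone across the blood-brain barrier, was the exception at 0.28 ± 0.09 (edgeR adjusted p = 0.041), and it lost its call in 8 of 14 alternative settings.

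Barrier transport genes, a list that shares Slco1c1, Slc16a1, Slc16a4, Slc7a1 and Car4 with the capillary list, had 5 of 8 lower and 1 higher, the latter being Slco1c1 (12.3% and 13.7% of all genes tested). Bsg, basigin, which partners the monocarboxylate transporters, fell by 0.39 ± 0.08 on the log2 scale, with 276, 341, 251 and 320.0 per 10000 in arterial cells against 381, 483, 399.9 and 426. Abcg2, an efflux pump, fell by 0.36 ± 0.08 and lost its call in 4 of 14 alternative settings. Gatm, an enzyme of creatine synthesis outside these lists, fell by 1.35 ± 0.10, with 28.1 to 39.2 per 10000 in arterial cells and 84.6 to 101 in other endothelial cells (edgeR adjusted p = 2.2e-06).

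**Figure D3:**
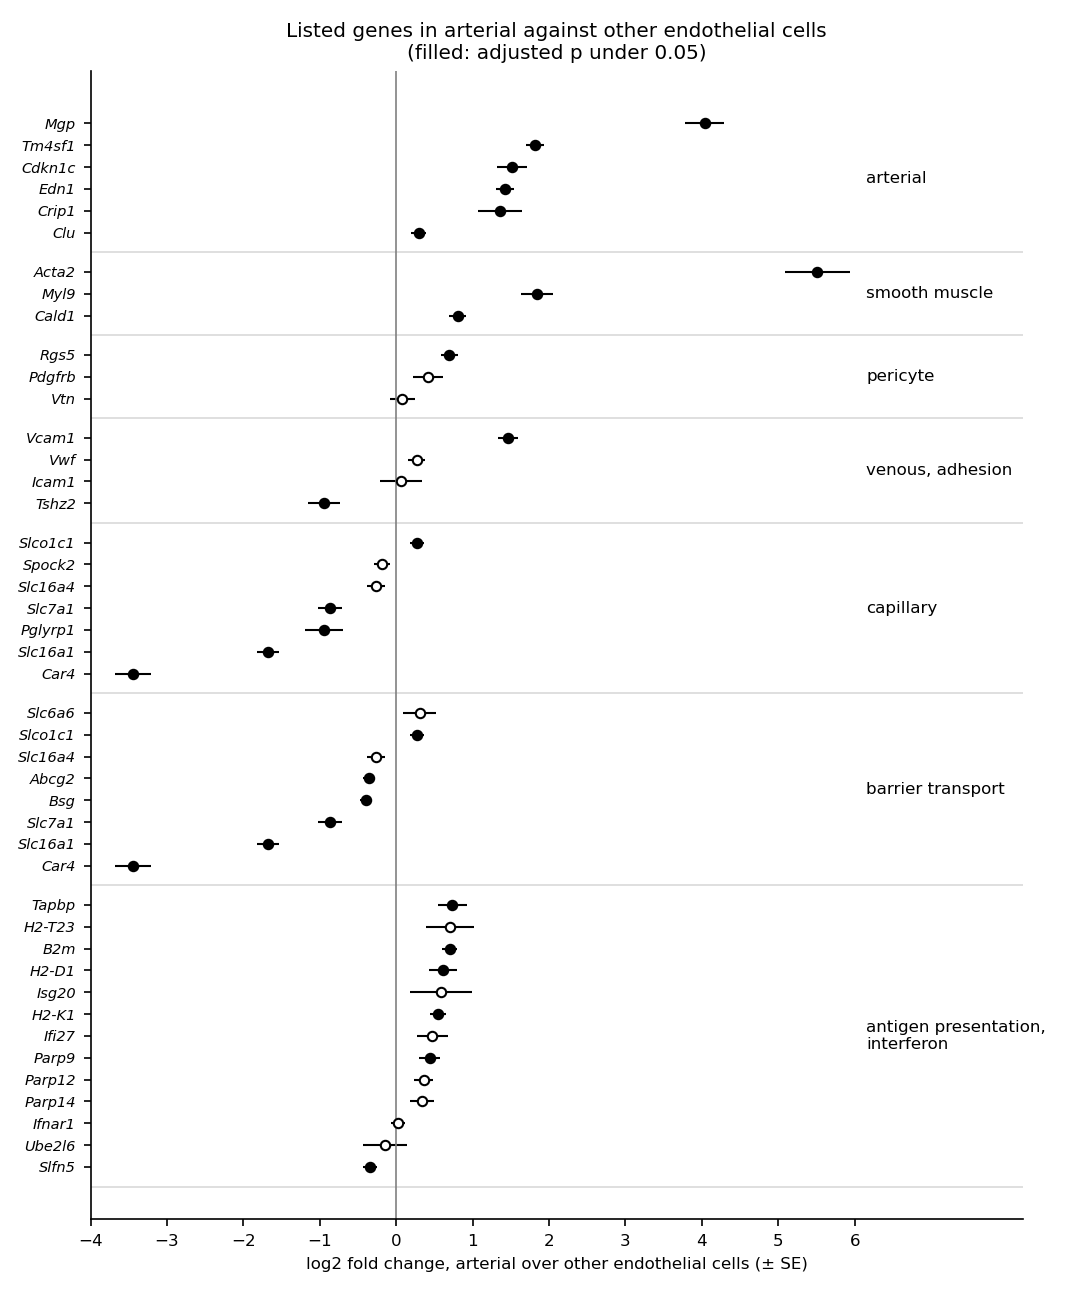
Log2 fold change of arterial over other endothelial cells (horizontal axis, bars ± SE) for the tested genes of 7 lists, filled where the adjusted p was under 0.05. All 6 arterial genes lie to the right of 0, and Car4, at -3.44, lies farthest to the left.

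Of the 4 venous and adhesion genes, 1 was higher, 1 was lower and 2 did not pass, where 13.7% of all genes tested were higher and 12.3% lower. Vcam1, an adhesion molecule for leukocytes, stood at 42.2, 42.1, 49.2 and 20.2 per 10000 in arterial cells and at 14.1, 17.6, 17.9 and 9.65 in other endothelial cells. The groups did not overlap, and the log2 fold change was 1.47 ± 0.13 (SE, edgeR adjusted p = 6.6e-06). Tshz2, a zinc finger gene, fell by 0.94 ± 0.21 and lost its call with mixed cells left out. Icam1 and Vwf, an adhesion molecule and the von Willebrand factor, had log2 fold changes of 0.06 ± 0.27 and 0.27 ± 0.11 and did not pass.

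Ligands that endothelium sends to the vessel wall had 3 of 7 higher and none lower, beside 13.7% and 12.3% of all genes tested. Beside Edn1, Pdgfa rose by 1.15 ± 0.23 (SE) and Tgfb3 by 1.38 ± 0.36 on the log2 scale, both growth factors. Pdgfa lost its call in 3 of 14 alternative settings and Tgfb3 in 3 of 13, and Tgfb3 rested on 48 transcripts in arterial cells. Timp3, an inhibitor of matrix metalloproteinases, stood at 247, 245, 384 and 244 per 10000 in arterial cells and at 110.4, 113, 183 and 151 in other endothelial cells, a rise of 1.12 ± 0.09 (SE, edgeR adjusted p = 4.2e-06). With Timp3 and Col4a2, a chain of type IV collagen, 2 of 9 basement membrane genes were higher, beside 13.7% of all genes tested, and Col4a2 lost its call in 7 of 14 alternative settings, while Itga6, a laminin-binding integrin, fell by 0.43 ± 0.11 on the log2 scale and lost its call in 3 of 14.

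Further genes with large folds were Ccnd2 (cyclin D2), Cp (the ferroxidase ceruloplasmin), Inmt (a methyltransferase) and Ano1 (a calcium-activated chloride channel), which rose by 1.76 ± 0.16, 1.65 ± 0.15, 1.64 ± 0.34 and 1.56 ± 0.20 on the log2 scale. Cp stood at 107, 83.3, 105 and 82.3 per 10000 in arterial cells and at 26.0, 26.7, 42.8 and 38.8 in other endothelial cells, with no overlap. Inmt is also one of the 4 fibroblast genes listed, and it was the 1 of them that passed. Of these 4 genes, 3 had a log2 fold change above 0 and 1 below, with a median of 0.64. The summed level of that list was 137, 149, 141 and 113 per 10000 in arterial cells and 156, 160.4, 138 and 132 in other endothelial cells. Ano1 did not pass with mixed cells left out or under the stricter endothelial rule. Among 15 tested genes of endothelium in general, 4 were higher and 4 lower, where 13.7% and 12.3% of all genes tested were, among them Podxl, a sialomucin of the luminal surface, at 0.79 ± 0.09, Ly6a, a membrane antigen, at 0.61 ± 0.10 and Ctla2a, a cysteine protease inhibitor, at -2.19 ± 0.31 on 16 transcripts.

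Antigen presentation and interferon genes had 5 of 13 higher and 1, Slfn5 at -0.34 ± 0.09, lower, with a median log2 fold change of 0.47, where 13.7% of all genes tested were higher and 12.3% lower. B2m, the light chain of class I molecules, stood at 74.7, 82.9, 93.2 and 100.2 per 10000 in arterial cells and at 48.7, 56.1, 75.2 and 58.0 in other endothelial cells. It was higher in arterial cells of every section, though the lowest arterial value lay below the highest of the others, and the log2 fold change was 0.70 ± 0.10 (SE, edgeR adjusted p = 0.00028). H2-K1, a class I heavy chain, rose by 0.55 ± 0.11 and Tapbp, which loads class I molecules, by 0.73 ± 0.19. In 14 alternative settings, Tapbp lost its call in 7, Slfn5 in 6 and H2-K1 in 4, and B2m in none. The other 2 higher genes, named after their values were seen, were H2-D1, a further class I heavy chain, at 0.62 ± 0.18, and Parp9, an interferon-induced gene, at 0.44 ± 0.14. H2-D1 lost its call in 7 of 14 alternative settings, with -0.09 when mixed cells were left out, and Parp9 in 10 of 14. Of 10 tested inflammatory genes, Vcam1, Ptgs2 and Nfkbiz were higher and none was lower. Ptgs2 lost its call in 7 of 14 alternative settings, and Nfkbiz, which reversed with mixed cells left out, kept it in 3. None of 7 tested genes of cell cycle arrest and death passed.

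Transcripts of the vessel's contractile cells moved with the arterial class. All 3 smooth muscle genes were higher, at 5.51 ± 0.42 (SE) for Acta2 (smooth muscle actin), 1.84 ± 0.21 for Myl9 (a myosin light chain) and 0.80 ± 0.11 for Cald1 (caldesmon) on the log2 scale, where 13.7% of all genes tested were higher. Cald1 lost its call under the stricter endothelial rule and with mixed cells left out, at 0.55 and 0.29 (edgeR adjusted p = 0.086 and 0.53). Their summed level was 143.5, 127.8, 238 and 74.2 per 10000 in arterial cells and 36.0 to 46.1 in other endothelial cells, and no gene of the list was at 0. Acta2 stood at 56.6, 46.8, 104 and 6.21 per 10000 in arterial cells and at 0.628 to 2.14 in other endothelial cells, so that aged section 2 was far below the other 3. Acta2 was detected in 61 of the 340 cells, 22 of them with 10 or more transcripts. Of 3 pericyte genes, Rgs5, a regulator of G protein signalling, was higher at 0.70 ± 0.12 but lost its call with mixed cells left out (0.37, edgeR adjusted p = 0.092), and Pdgfrb and Vtn had 0.41 ± 0.20 and 0.08 ± 0.16 and did not pass.

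The comparison was therefore repeated without endothelial cells that held an Acta2 transcript. Of 74 genes that then passed, 63 were among the 89. Mgp, Tm4sf1, Edn1, Vcam1, Car4 and Slc16a1 had log2 fold changes of 2.92, 1.67, 1.38, 1.02, -3.23 and -1.48, all past the threshold. Myl9 had 0.61 and no longer passed (edgeR adjusted p = 0.095). Mgp was detected in 141 arterial cells, 91 of them without Acta2. Per 10000 transcripts, Mgp stood at 18.9, 13.6, 38.3 and 22.5 in the arterial cells without Acta2 and at 152, 218, 285 and 71.2 in those with it.

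Markers of neurons and glia were also read in the arterial cells. Over all genes tested, 12.3% were lower and 13.7% higher. Of 7 neuronal genes, 2 were lower and 1 was higher, the latter being Stmn2, a microtubule regulator, at 0.84 ± 0.15 on the log2 scale. The summed level of these genes was 96.0, 80.4, 109 and 103 per 10000 in arterial cells and 129 to 139 in other endothelial cells. None of 7 astrocyte genes passed, P2ry12 was the 1 of 7 microglial genes that did, at -1.03 ± 0.29 (lost in 8 of 14 alternative settings), and Mal was the 1 of 5 oligodendrocyte genes, at 0.66 ± 0.10. Stmn2 and Mal lost their calls under the stricter endothelial rule. Astrocyte genes summed to 334, 378, 346 and 370 per 10000 in arterial cells and 337, 354, 357 and 325 in other endothelial cells. Cells outside the endothelial class had 300, 318, 382 and 340. At least 3 astrocyte genes, enough to count as a mixed cell, were detected in 64.2%, 61.7%, 54.8% and 54.7% of arterial cells. The shares of other endothelial cells, which held fewer transcripts per cell, were 49.7%, 46.6%, 42.3% and 40.5%. Oligodendrocyte genes summed to 72.1, 58.3, 98.4 and 76.5 against 55.8, 55.5, 75.5 and 52.6, higher in arterial cells of every section. Microglial genes summed to 14.6, 10.3, 5.18 and 8.16 against 19.7, 17.3, 18.2 and 18.3, lower in every section. The part of neighbouring cells in these levels was not tested.

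Arterial cells lay nearer to smooth muscle-like cells, defined outside the endothelial class as cells with Acta2, Myl9 and Cald1 all detected and at 5% or more of transcripts. The sections held 536, 639, 481 and 552 such cells. The median distance to the nearest one was 160.1, 154, 143 and 173 µm for arterial cells in the order of sections, against 212, 212, 206 and 196 µm for other endothelial cells. The mean difference was -49.0 ± 18.0 µm (SD, n = 4 sections), with arterial cells nearer in 4 of 4 sections (exact two-sided sign-flip permutation p = 0.125, the smallest that 4 sections allow). It was -27.2 ± 16.3 µm without cells that held Acta2 and -101 ± 76.5 µm under the stricter arterial rule, with arterial cells nearer in 4 of 4 sections in both. Under the stricter arterial rule the arterial medians were 88.9, 125, 16.8 and 190 µm, from 47, 28, 11 and 27 cells. Aged section 2 thus lay close to the 196 µm of its other endothelial cells. Under the main rule, 19.2%, 21.3%, 29.0% and 6.32% of arterial cells lay within 30 µm of a smooth muscle-like cell. Of the others, 1.61%, 0.908%, 1.05% and 0.730% did. Without cells that held Acta2, these shares of arterial cells were 5.32%, 6.67%, 13.0% and 4.60%, against 1.12%, 0.718%, 0.708% and 0.472% of the others. Smooth muscle-like cells themselves carried Bmx at 33.2 to 41.6, Gkn3 at 12.7 to 24.3 and Cldn5 at 11.8 to 19.5 per 10000, where other endothelial cells held Bmx at 2.80 to 6.98 and Gkn3 at 1.63 to 2.65. The part of these neighbouring transcripts in the choice of arterial cells and in their nearness was not tested.

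**Figure D4:**
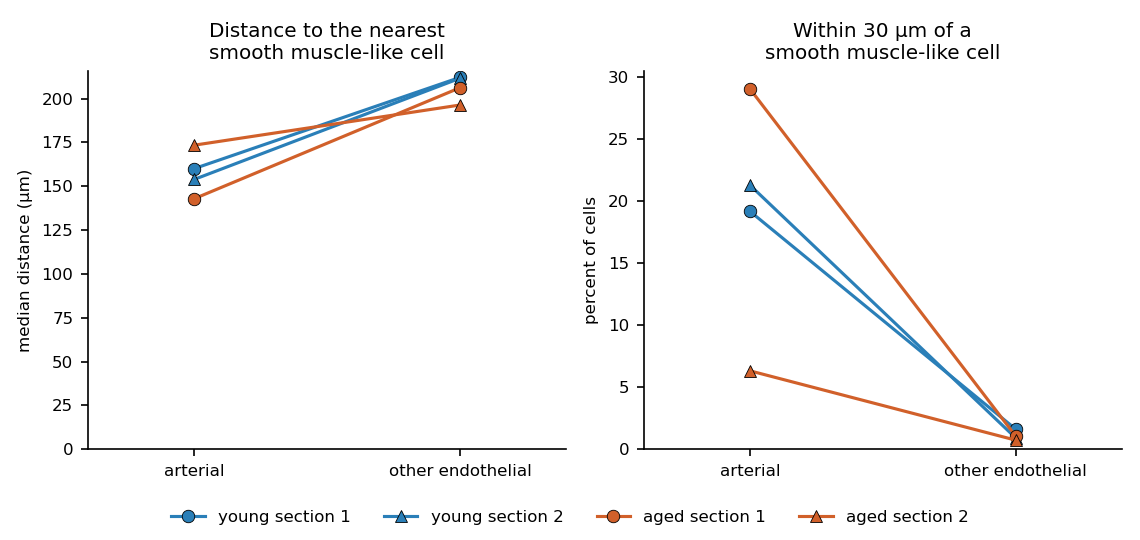
Left, median distance in micrometres to the nearest smooth muscle-like cell; right, percent of cells within 30 µm of one, for arterial and other endothelial cells, with 1 line per section. Arterial cells are nearer in all 4 sections, and aged section 2 has the smallest difference in both panels.

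Arterial cells did not differ in a stable direction in their distance to the tissue edge. The medians were 874, 1107, 791 and 1105 µm against 900.0, 930.1, 951 and 919 µm for other endothelial cells, with 2 sections in either direction (mean difference 44.0 ± 167 µm, SD, n = 4, exact sign-flip permutation p = 0.75). Within 100 µm of the edge lay 3.33%, 0%, 0% and 1.05% of arterial cells and 4.42% to 4.96% of the others, lower in 4 of 4 sections (exact sign-flip permutation p = 0.125). With 94 and 31 cells in the sections at 0, a share of up to 3.19% and 9.68% is allowed by 3 cells. With mixed cells left out, young section 1 turned. There 5.56% of 36 arterial and 4.53% of the other endothelial cells lay within 100 µm.

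Spiny projection neurons are the principal neurons of the striatum. Endothelial cells were placed in a spiny neuron-rich zone when at least 40% of the cells within 150 µm held 3 or more spiny neuron markers. The arterial share of endothelial cells there was 4.74%, 4.51%, 1.92% and 5.26%, against 3.87%, 3.02%, 2.33% and 4.63% in the zones rich in neither spiny neurons nor oligodendrocytes. The mean difference was 0.645 ± 0.794 percentage points (SD, n = 4, exact sign-flip permutation p = 0.25), positive in 3 of 4 sections. The sign turned under the stricter arterial rule, at -0.107 percentage points with 3 of 4 sections below 0, and under the stricter endothelial rule, at -0.0849 with 2 of 4. Oligodendrocyte-rich zones held 383 endothelial cells in all, 12 of them arterial, and were not compared.

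The arterial share of endothelial cells did not separate the ages. Young sections had 4.51% (95% Wilson interval 3.79 to 5.37) and 3.58% (2.93 to 4.36), and aged sections 2.13% (1.505 to 3.01) and 4.72% (3.87 to 5.73), where the intervals cover counting error only. The lowest and the highest value were both aged. The means were 4.05 ± 0.659% and 3.42 ± 1.83% (SD, n = 2 each, exact two-sided permutation p = 1, where the smallest p that 2 against 2 allows is 0.333). Per square millimetre of tissue there were 3.45, 2.31, 0.807 and 2.37 arterial cells. Other endothelial cells numbered 73.1, 62.2, 37.1 and 48.0 per square millimetre, with both young sections above both aged ones (exact permutation p = 0.333), and fewer detected cells and fewer transcripts per cell cannot be told apart here.

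Because aged cells were shallower, every endothelial cell with at least 150 transcripts was also thinned to 150, and the share with 2 or more arterial markers was counted. This share was 3.88%, 3.56%, 2.68% and 4.49% of the 2063, 1910, 896 and 1336 cells so deep, against 7.51%, 5.86%, 4.13% and 7.63% of the same cells before thinning. Over all endothelial cells, shallow ones included, the unthinned share was 6.32%, 4.72%, 3.51% and 6.55%. Cells left out of the thinning numbered 597 and 716 of the young and 559 and 678 of the aged. The means of the thinned share were 3.72 ± 0.225% and 3.58 ± 1.28% (SD, n = 2 each, exact permutation p = 1).

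**Figure D5:**
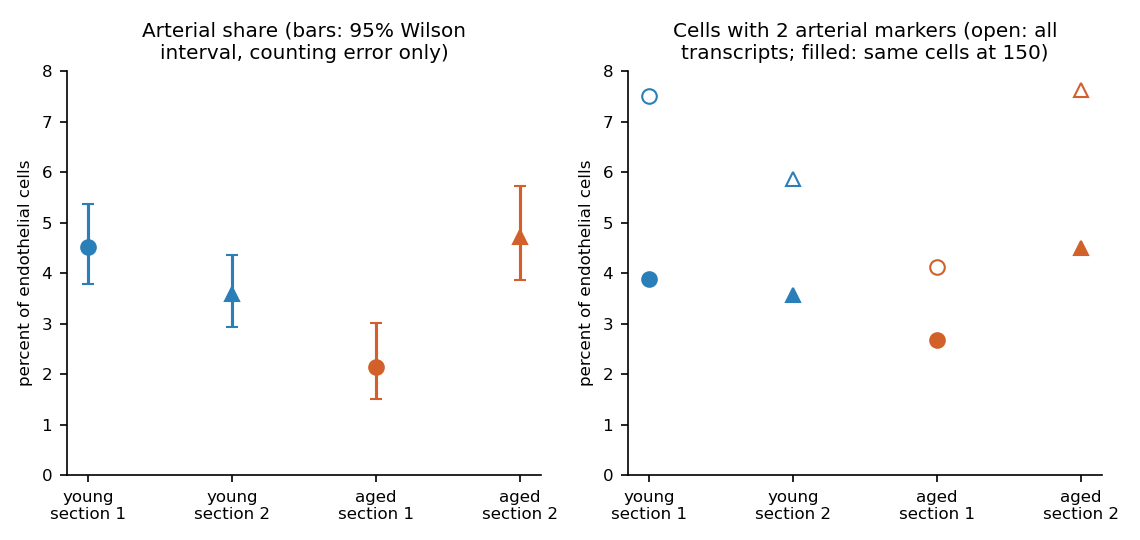
Left, arterial share of endothelial cells (percent) by section with 95% Wilson intervals; right, share of endothelial cells of at least 150 transcripts with 2 or more arterial markers, from all their transcripts (open) and after thinning to 150 transcripts (filled). Aged section 1 is lowest and aged section 2 highest in both panels.

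No gene passed the test between the ages within arterial cells. Of 218 genes tested, 0 (0%) had an adjusted p under 0.05 in edgeR's quasi-likelihood test, 13 had an unadjusted p under 0.05, and DESeq2 called 0 with 2 at that unadjusted level. In counts simulated at these depths with the same spread for every gene, the edgeR test called 19% of 1.5-fold and 47.6% of 2-fold changes. Of 4-fold changes, 89.7% were called, so smaller changes could be missed. The median log2 fold change of aged over young was 0.02 over all genes tested and 0.20 over the 6 further arterial genes, of which none passed. Edn1 had a log2 fold change of 0.10 ± 0.31 (SE), Tm4sf1 0.31 ± 0.31, Mgp 0.43 ± 0.48 and Slc16a1 -0.02 ± 0.34. Among the genes that chose the cells, Gkn3 and Bmx averaged 53.9 ± 3.46 and 68.6 ± 4.48 per 10000 in young and 64.9 ± 2.11 and 83.1 ± 8.79 in aged arterial cells (SD, n = 2 each), given without a test.

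The smallest p belonged to Ahnak, a large scaffold protein, which was singled out after its values were seen. It stood at 214, 189, 359 and 268 per 10000 in arterial cells, with both aged sections above both young ones, and its log2 fold change was 0.69 ± 0.19 (SE, edgeR adjusted p = 0.65). With the replicate number as a block, Ahnak passed at 0.68 ± 0.12 (SE, edgeR adjusted p = 0.0032). Same-numbered sections did not deviate together, so that block was not used in the main fit. The 2 aged sections disagreed widely in vessel wall genes, with Mgp at 110.0 and 27.6 and Acta2 at 104 and 6.21. Without aged section 2, 7 genes passed, all higher in the aged section that was left, which held 31 arterial cells. The spread in that fit came from the 2 young sections alone, and the lone aged section was assumed to vary like them. These genes were Acta2, Ahnak, Gfap, Mgp, Myl9, Synm and Timp3. Smooth muscle genes summed to 238 per 10000 in that section's arterial cells, and their part in this list was not tested. With mixed cells left out, Acta2 was the 1 gene that passed, in the opposite direction, with 43 and 29 transcripts in the young sections' 36 and 23 remaining arterial cells and 0 in the 7 and 26 of the aged sections.

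The change with age was also compared between arterial and other endothelial cells. Of 353 genes, 0 (0%) passed the edgeR test of the difference, 26 had an unadjusted p under 0.05, and DESeq2 called 0 with 6 at that level. In counts simulated in the same way, the edgeR test of the difference called 22.6% of 1.5-fold and 37.9% of 2-fold changes. In other endothelial cells alone, 0 of 372 genes passed between the ages (0%). Without cells that held Acta2, 4 genes passed the test of the difference, namely Gfap, Myl9, Nampt and Cxcl12, and without aged section 1, 6 passed, namely Cp, Nampt, Timp3, Vtn, Acta2 and Cxcl12. In the latter fit too, the spread came from the 2 young sections alone. Nampt and Cxcl12 were in both lists, at 0.70 ± 0.21 and -0.62 ± 0.19 (SE) in the fit of all sections and cells, both with an edgeR adjusted p of 0.11.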

How the data were processed

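The deposited files hold, per section, raw transcript counts per gene and segmented cell, the cell volume in cubic micrometres (a signal in the authors' table) and the cell's centre position in micrometres (a score, deposited as coordinates). The authors imaged with a Vizgen MERFISH instrument and decoded and segmented with MERLIN. The deposited counts were not normalised, while the paper's own analysis normalised the counts of each cell. A deposited table of per-sample means was not used.

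Cells were kept and classed by the rules given in the text. The members and the gene lists were chosen with earlier results of these data known. Counts were summed per section and class and tested in edgeR 4.0.16 (TMM, filterByExpr, quasi-likelihood, Benjamini-Hochberg, threshold 0.05) in R 4.3.3, with DESeq2 1.42.0 as an alternative. The 10 genes of the rule were fitted but left out of testing. Scripts were tested on simulated counts. Named genes were the rule genes, the arterial, capillary, venous and smooth muscle lists, up to 10 higher and 10 lower genes by fold, and up to 4 per other list by adjusted p. Of the genes so named, low-count ones (Snhg11, Gpr17, Pcsk2, Atp2b2, Rims2, Ptprd and Gng3, 8 to 34 transcripts in arterial cells) all had negative folds. Replicates had no stated pairing. Alternatives comprised stricter rules, mixed cells left out (3 or more markers of another cell type), depth limits, other scalings and leaving out each section; leaving out cells with Acta2 was chosen after seeing the data. Young sections carry other numbers inside their files than in their titles; titles were used. One gene of the barrier transport list is not reported here.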

Additional observations from a re-analysis of the deposited data

How the results depend on the processing

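The arterial against other endothelial comparison gave 43 calls with mixed cells left out, 44 under the stricter endothelial rule, 58 without young section 1 and 52 without young section 2, against 89, and leaving out 1 section at a time gave 52 to 98. Of the 89 genes, 36, 39, 54 and 52 were shared with those 4 settings. Leaving out mixed cells kept 36, 23, 7 and 26 arterial cells in the order of sections, and 254 genes were tested, against 342 in the main fit. The stricter endothelial rule kept 38, 33, 6 and 22 arterial cells, and 255 genes were tested. The part of these smaller cell numbers in the lost calls was not tested. In all, 23 of the 89 passed in every alternative that tested them, 18 of them among the 48 called genes that the rule names, and 4 of the 89 reversed in at least 1, of which Nfkbiz and H2-D1 are named in the text (-0.37 and -0.09 with mixed cells left out).

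The change with age in arterial cells gave 1 call with mixed cells left out (Acta2, lower in aged cells), 1 with the replicate block and 0 to 7 without 1 section. The interaction gave 4 calls without cells that held Acta2, 1 with mixed cells left out (Acta2) and 0 to 6 without 1 section. Same-numbered sections did not deviate together (r = 0.0067 over 228 genes), so the numbers were not taken as pairs; the replicate block moved the count with age from 0 to 1 (Ahnak, 0.68 ± 0.12, SE, edgeR adjusted p = 0.0032) and left the interaction at 0. The aged minus young arterial share was -0.622 percentage points and lay between -1.91 and 0.672 without 1 section, with the sign reversed without aged section 1. At a fixed depth the difference of -0.134 percentage points became 0.226 when thinned to 100 transcripts and lay between -1.04 and 0.772 without 1 section. The distance to the edge (44.0 µm) became -27.4 µm under the stricter arterial rule and -149.9 µm under the stricter endothelial rule. It became 113.5 µm with mixed cells left out and 77.4 µm without cells that held Acta2, and lay between -3.14 and 112 µm without 1 section. The zone difference (0.645 percentage points) became -0.107 under the stricter arterial rule and -0.0849 under the stricter endothelial rule. It was 1.09 with the zone threshold at 30% and 0.268 with mixed cells left out. The causes were not tested. The nearness to smooth muscle-like cells kept its direction in every alternative run, with differences from -101 µm (stricter arterial rule) to -27.2 µm (without cells that held Acta2).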
